A study of Mus musculus with 16 samples.

Results

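The response of the kidney to glycerol was measured in mice labelled C3-/-, by comparing the 4 libraries labelled C3-/- glycerol with the 4 labelled C3-/- PBS. These are 8 of the 16 libraries of the series, and the other 8 are the WT PBS and WT glycerol groups, with 4 libraries each. Of the 20525 genes in the deposited matrix, 18035 were tested, those whose value reached 10 in 4 or more of the 16 libraries. All mice were 8 weeks old, with a strain background that the labels spell C56BL/6. The C3-/- genotype targets complement component C3. Glycerol mice received 7.5 ml/kg of 50% glycerol in a thigh muscle, which causes rhabdomyolysis, and control mice received PBS. RNA came from lysates of frozen kidney sections 30 µm thick and was sequenced as bulk libraries. The sources used here do not give the time from injection to sampling, the sex of the mice or the part of C3 that was deleted. Nothing in the labels ties each library to its own animal, and a p-value therefore reflects the spread among these samples, which could be technical.

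Rhabdomyolysis is the breakdown of skeletal muscle. It releases myoglobin and other heme proteins that are filtered by the glomerulus and taken up by the proximal tubule, where heme and iron can cause oxidative injury. C3 is the protein on which the complement activation pathways converge, and the comparison asks which transcripts change after glycerol in kidneys in which that gene was targeted. Tubule cells under such stress are known to use several transcriptional programs: ATF4 for amino acid shortage, XBP1 and ATF6 for misfolded protein in the endoplasmic reticulum, Nrf2 for oxidants, p53 for DNA damage and NF-kB for inflammatory signals.

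C3 itself (ENSMUSG00000024164; GRCm38 chromosome 17, 57203970 to 57228136, minus strand) was read in every library labelled C3-/-. Its normalized counts in PBS libraries 1 to 4 were 819.4, 1140, 860 and 563.8, and in glycerol libraries 1 to 4 they were 8008, 1457, 5495 and 1587. The 4 glycerol values lay above the 4 PBS values, and the WT libraries averaged 397.9 ± 61.4 (SD, n = 4) after PBS and 3235 ± 1287 (n = 4) after glycerol. Because the deleted part is not known here, these totals are no check of the genotype, and C3-/- below means the libraries so labelled. The rise of C3 after glycerol was 1.95 ± 0.48 (SE) on the log2 scale (limma adjusted p = 0.0268). That call ended without PBS library 1, 3 or 4 (adjusted p = 0.0728, 0.067 and 0.0772) and without glycerol library 1 or 3 (0.0841 and 0.0597).

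The deposited values of the 8 C3-/- libraries summed to 25810749 to 36150295, with 254 to 982 genes listed at 0, and these sums do not give read numbers. WT glycerol 4, which enters the estimate of spread, had 3374 genes listed at 0. Glycerol libraries 1 and 3 stood apart from the other 6. The sample descriptions end in numbers that run from 1 to 13 over 13 libraries. Those of C3-/- glycerol 1 and 3, and of WT glycerol 4, repeat the numbers 3, 4 and 5, and these are called the repeated-number libraries here. The sources used here do not say what the repetition stands for. The median absolute log2 difference between the repeated-number pair and glycerol 2 and 4 was 0.831 per gene, against 0.193 between glycerol 2 and 4, 0.521 between glycerol 1 and 3, and 0.131 to 0.247 between PBS libraries. That difference had a Spearman correlation across 18027 genes of -0.288 with transcript length and 0.371 with GC share, and genes are not independent replicates. PBS 4, glycerol 3 and glycerol 4 carried Ddx3y, a Y-linked gene, at 1396, 481.5 and 1227. The other 5 libraries had at most 1.118, and their Xist, the transcript of the inactive X chromosome, lay between 16100 and 35410. Each C3-/- group therefore mixed male and female material, and the repeated numbers fell in glycerol libraries only. Results are given with all libraries and, where it matters, without the repeated-number libraries. The latter leaves glycerol 2 and 4 as the only C3-/- glycerol libraries. Their part in each result was not tested beyond these refits.

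**Figure D1:**
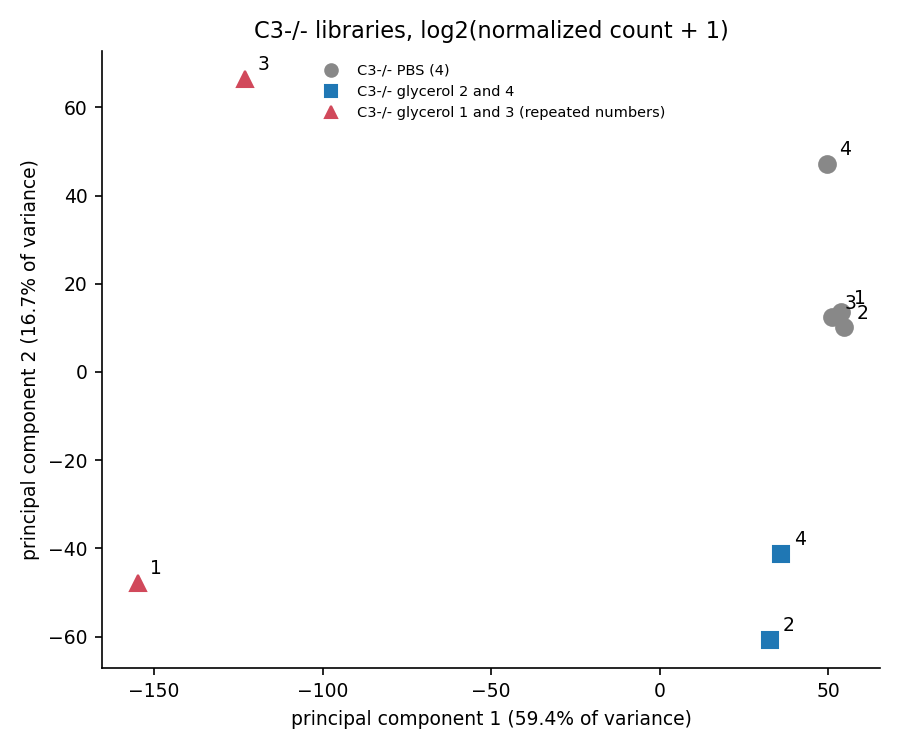
Principal components of the 8 C3-/- libraries on log2(normalized count + 1), each point 1 library with its replicate number, the first component (59.43% of variance) on the x axis and the second (16.72%) on the y axis. Glycerol 1 and 3 lie at -154.9 and -123.1 on the first component, and the other 6 libraries lie between 32.8 and 54.8.

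With all 16 libraries in one limma fit, 663 genes were called higher after glycerol (3.68% of those tested) and 353 lower (1.96%), at an adjusted p below 0.05. All 4 glycerol values lay on one side of all 4 PBS values for 951 of these 1016 genes, and among all tested genes that held for 3470 (19.2%). At least 4-fold differences were seen in 194 of the rises and 61 of the falls. The median over all tested genes was -0.06 on the log2 scale. The median transcript length was 2391 bases for genes called higher, 3121 for genes called lower and 3027 for all tested genes. The part of the repeated-number libraries in this was not tested. The authors' deposited table lists 2085 genes higher and 1096 lower at its adjusted p below 0.05, and it holds all 1016. Leaving out 1 library at a time, 332 rises and 115 falls were called in each of the 16 fits. The count of rises was 363, 365 and 392 without PBS 1, 2 or 3, 409 without glycerol 1 and 1460 without WT glycerol 4. The count of falls was 129, 144, 152 and 163 without the same 4 C3-/- libraries, 678 and 672 without glycerol 2 or 4, and 1320 without WT glycerol 4.

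Without the repeated-number libraries, limma called 2234 genes higher (12.4%) and 1908 lower (10.6%). Of the 1016 genes, 962 were called there in the same direction (640 rises and 322 falls) and none had the opposite sign. Of the 4142 genes called there, 797 had the opposite sign with all libraries. Because the libraries without repeated numbers are part of the whole, this overlap is no independent support. List counts below without the repeated-number libraries are to be read beside the shares of 12.4% and 10.6%. List counts with all libraries are to be read beside 3.68% higher and 1.96% lower. Of the 128 genes called and named in the text, Slc4a4 alone lost its call without the repeated-number libraries. When the 8 C3-/- libraries were fitted without the WT groups, which otherwise share the estimate of spread, 215 genes were called higher and 93 lower. Among the named genes, Aldh18a1, Atf4, Sdf2l1, Slc7a11, Gsr, Fth1, Ftl1, Slc48a1, Krt20, Timp1, S100a6, Spp1, Sox9, Erbb3, Il1rn, Il6, Cx3cl1, Psmb5, Psmd2, Ncl, Rrp9, Rrp12, Trp53, Ripk3, Slc34a3, Slc4a4, Fbp1, Oxct1, C3, C7, C5ar1, Itgax and Jchain were not called in that smaller fit, with limma adjusted p up to 0.154 (C5ar1). A named gene kept its call in each leave-one-out fit unless its exceptions are given. Genes named for size or p of change were drawn from called genes whose 4 glycerol values did not overlap the 4 PBS values. For them, separate groups are no further result.

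**Figure D2:**
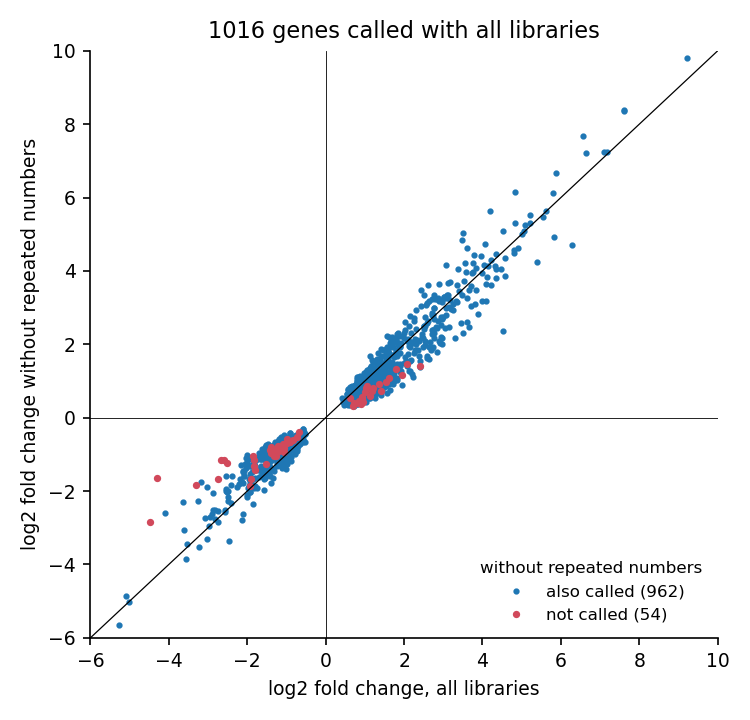
Log2 fold change of glycerol over PBS for the 1016 genes called with all libraries (x axis) and without the repeated-number libraries (y axis); the diagonal marks equality, blue points are the 962 genes called in both fits and red points the others. All 1016 points lie in the quadrants of equal sign.

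The ATF4 program answers amino acid shortage and other stress by raising genes of amino acid synthesis and transport. Of 32 ATF4 and amino acid stress genes, 17 rose and none fell, with a median of 1.41 against -0.06 over all genes. Of the 17, 15 were called in every leave-one-out fit, and 25 rose and 1 fell without the repeated-number libraries. Trib3 (chromosome 2, 152337422 to 152344032, minus strand), a pseudokinase that feeds back on ATF4 signalling, had normalized counts of 30.17, 33.2, 21.34 and 23.71 in PBS libraries 1 to 4. In glycerol libraries 1 to 4 it had 1550, 1313, 1187 and 1460. The glycerol libraries with and without repeated numbers thus gave almost the same level, and the log2 fold change was 5.63 ± 0.23 (limma adjusted p = 3.74e-09; 5.64 without the repeated-number libraries). Chac1, which degrades glutathione, was at 44.91, 35.36, 34.65 and 22.95 after PBS and at 1926, 788.8, 195.3 and 579.2 after glycerol. Its 4 glycerol values spread over a wide range but all stood above PBS (log2 fold change 4.22 ± 0.51, adjusted p = 0.000282). Fgf21, a stress hormone, was listed at 0 in 3 PBS libraries and at 0.8483 in the other, and reached 20.49, 21.39, 29.99 and 18.05 after glycerol (adjusted p = 0.00154).

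Several members of the list make amino acids. Asns, asparagine synthetase, was at 79.23 to 103.9 after PBS and at 897.1, 1079, 358.5 and 1323 in glycerol libraries 1 to 4 (log2 fold change 3.12 ± 0.38). Pycr1 and Aldh18a1, of proline synthesis, rose by 2.71 ± 0.36 and 2.15 ± 0.42, Phgdh, the first enzyme of serine synthesis, by 1.58 ± 0.20, and Mthfd2, a mitochondrial folate enzyme, by 2.71 ± 0.37. Among the regulators, Atf5 rose by 3.99 ± 0.46, Ddit3, which encodes CHOP, by 3.65 ± 0.47, and Cebpb by 2.90 ± 0.53. Gdf15, a secreted stress cytokine, averaged 86.19 ± 34.18 after PBS and 1063 ± 525.9 after glycerol (SD, n = 4 each; limma adjusted p = 0.000254). The transcript of Atf4 itself rose less (1.89 ± 0.47, adjusted p = 0.0306), with 24870 in glycerol 1 against 5293, 6601 and 5118 in the other 3. Its call ended without glycerol 1 (adjusted p = 0.0696) and without any 1 of the C3-/- PBS libraries (0.0625 to 0.0876).

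The promoters of the list were searched for the C/EBP-ATF response element, written TGATGNAA, on both strands of a window from 250 bases before to 50 bases after the RefSeq start. It was found in 9 of the 28 ATF4 list members with a promoter entry (7 of the 15 that rose) and in 4.51% of all 27025 genes with an entry. A match describes letters only and is not evidence of binding. The stretches around the match in 4 genes that rose are shown 5′ to 3′ on the strand of the gene, with the matched letters in capitals, from RefSeq promoters on build GRCm38.p6.

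Chac1: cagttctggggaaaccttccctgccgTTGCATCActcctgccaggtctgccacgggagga

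Asns: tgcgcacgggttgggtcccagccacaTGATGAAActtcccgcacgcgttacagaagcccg

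Fgf21: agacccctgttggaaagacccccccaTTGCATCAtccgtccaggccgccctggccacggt

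Pycr1: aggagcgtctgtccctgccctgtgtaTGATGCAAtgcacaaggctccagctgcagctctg

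These lie at chr2:119351023-119351082 (plus strand), chr6:7693199-7693258 (minus), chr7:45615596-45615655 (minus) and chr11:120643818-120643877 (minus). The matches begin 193, 23, 139 and 103 bases before the start. In Chac1 and Fgf21 the same letters TTGCATCA occur, the element read on the other strand.

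Genes that fold and clear proteins in the endoplasmic reticulum rose in part. Of 22 such genes 7 rose and none fell (median 0.73), 5 of them in every leave-one-out fit. The count was 14 without glycerol 3, and 21 of the 22 rose without the repeated-number libraries. Derl3, which helps move misfolded proteins out of the organelle, was at 21.21, 10.89, 37.95 and 18.04 after PBS and at 2633, 2459, 338.1 and 879.1 after glycerol. Its glycerol libraries differed among themselves by far more than its PBS libraries, yet the groups did not overlap (log2 fold change 5.81 ± 0.68, adjusted p = 0.00022). Creld2 and Manf, secreted proteins of this response, rose by 2.31 ± 0.31 and 1.67 ± 0.28, Sdf2l1, a chaperone partner, by 2.26 ± 0.46, and the ubiquitin ligase gene Syvn1 by 1.29 ± 0.19.

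Hspa5, the main chaperone of the organelle, was not called. It was at 15110, 14420, 14560 and 11500 after PBS and at 47500, 60300, 8883 and 56080 after glycerol, so that glycerol 3 lay below all PBS libraries while the other 3 glycerol libraries lay above them. The log2 fold change was 1.32 ± 0.56 (adjusted p = 0.164) with all libraries, 1.98 without glycerol 3 (adjusted p = 0.0101) and 2.07 without the repeated-number libraries (adjusted p = 8.2e-05). The promoter element of this response, spelled CCAAT, any 9 bases, then CCACG, was found on either strand in 9 of 19 list members with an entry and in 0.137% of all genes. It is shown for 2 genes that rose, at chr10:75893222-75893280 and chr15:88819500-88819558 (both plus strand, GRCm38.p6), where the matched letters in capitals are the element read on the other strand and begin 156 and 126 bases before the start.

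Derl3: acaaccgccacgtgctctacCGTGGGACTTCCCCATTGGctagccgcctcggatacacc

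Creld2: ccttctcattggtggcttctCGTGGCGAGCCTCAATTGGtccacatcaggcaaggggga

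Nrf2 is the transcription factor that answers oxidants. All 26 tested genes of the Nrf2 list had a positive log2 fold change, 14 rose (13 in every leave-one-out fit) and the median was 1.45. Without the repeated-number libraries 21 rose. Gsta1, a glutathione transferase gene (chromosome 9, 78230656 to 78242684), was at 55.36, 38.9, 62.01 and 19.44 after PBS and at 5800, 4497, 4533 and 8723 after glycerol. The lowest glycerol library was far above the highest PBS library (log2 fold change 7.10 ± 0.47, adjusted p = 1.72e-06). The other glutathione transferase genes Gstp1 and Gstp3 rose by 2.96 ± 0.49 and 5.38 ± 0.79, and they belong to a family of near-identical copies whose reads the authors' counting could split. Slc7a11, the cystine importer that supplies glutathione synthesis, was at 5.863 to 17.94 after PBS and at 517.9, 639.6, 30.17 and 1011 after glycerol, lowest in glycerol 3 (4.83 ± 0.97, adjusted p = 0.00909).

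Other members of the Nrf2 list also rose. Srxn1, which repairs peroxiredoxins, went from 1407 to 1893 after PBS to 23010, 14880, 5089 and 16330 after glycerol (3.02 ± 0.37), Cbr3, a carbonyl reductase, rose by 3.97 ± 0.35, and Nqo1, a quinone reductase, by 1.55 ± 0.21. G6pdx and Pgd, the NADPH-producing enzymes of the pentose phosphate pathway, rose by 1.54 ± 0.21 and 1.65 ± 0.20, glutathione reductase, Gsr, by 1.02 ± 0.20, and the autophagy receptor gene Sqstm1 by 1.89 ± 0.22. Cyp2a5, a cytochrome P450 gene, differed widely between glycerol libraries. It was at 1315, 1177, 1140 and 2468 after PBS, at 418100 and 270600 in glycerol 1 and 3, and at 22880 and 61920 in glycerol 2 and 4. Its log2 fold change was 6.28 ± 0.87 with all libraries and 4.70 without the repeated-number libraries (adjusted p = 0.000727 and 3.59e-05). The antioxidant element TGACNNNGC was found on either strand in 9 of 23 list members with an entry and in 14.0% of all genes, and in 3 of the 13 members that rose. It is shown for G6pdx at chrX:74428904-74428962 (minus strand, GRCm38.p6), read on the other strand and beginning 57 bases before the start.

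G6pdx: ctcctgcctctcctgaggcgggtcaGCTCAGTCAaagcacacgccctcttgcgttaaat

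**Figure D3:**
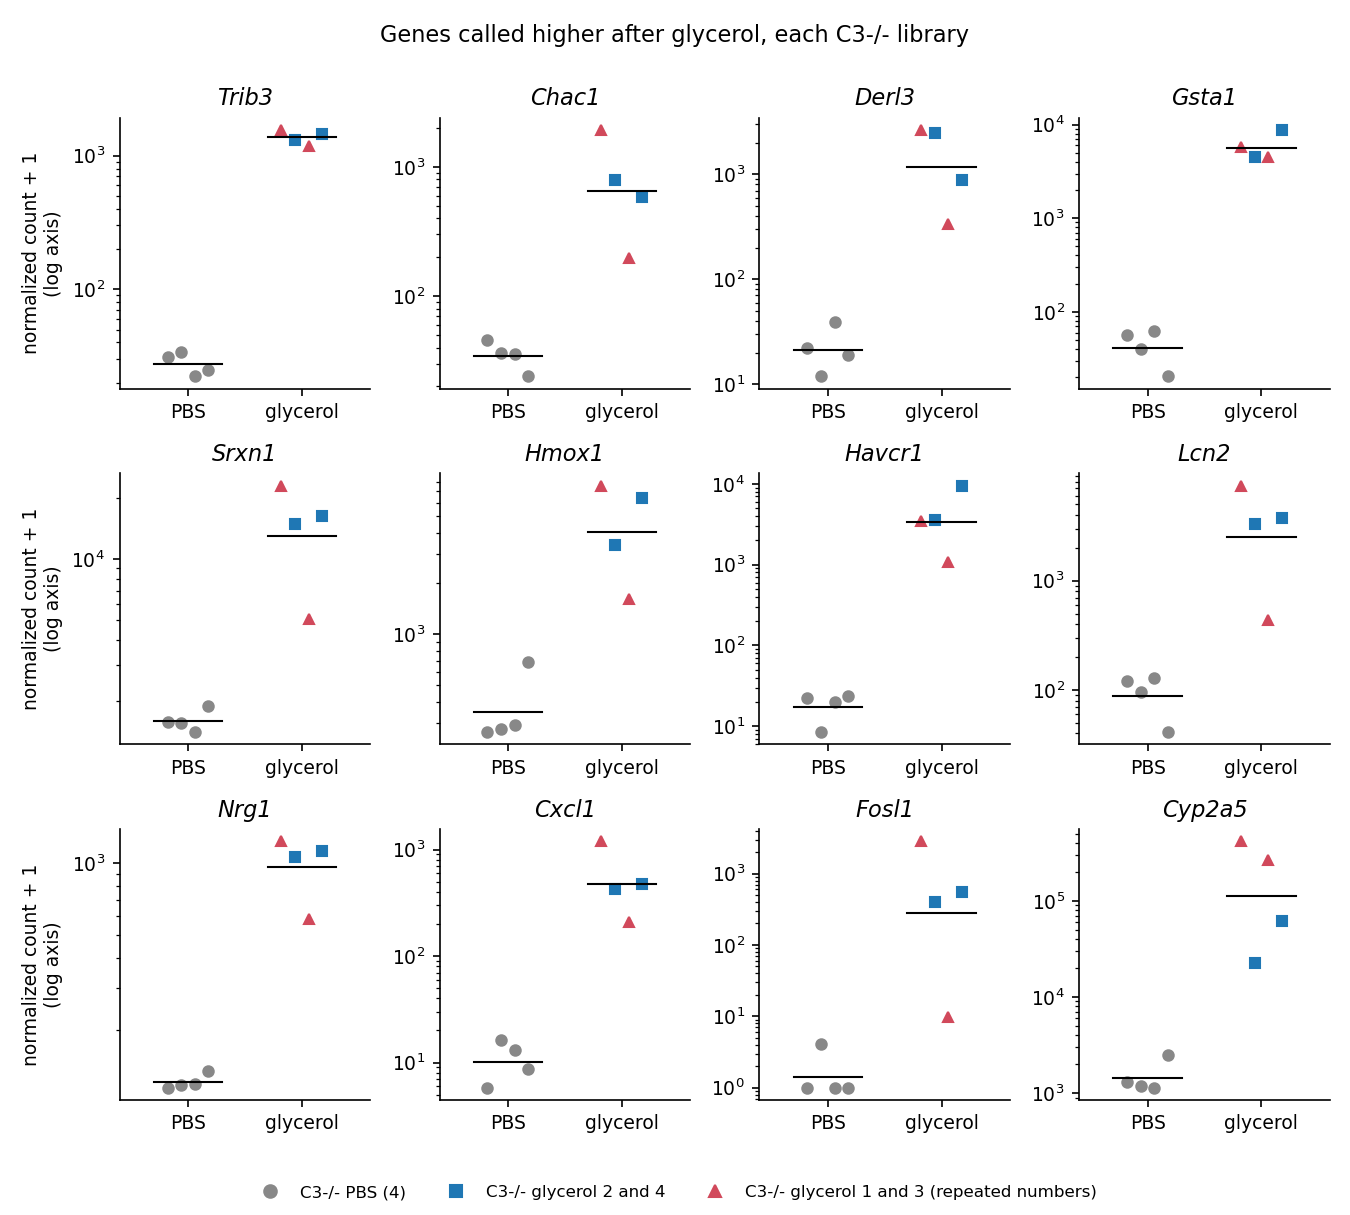
Normalized count + 1 (log axis) of 12 genes called higher, each point 1 C3-/- library, with replicates 1 to 4 from left to right and the bar at the geometric mean of 4 libraries. Trib3 lies at nearly the same level in all 4 glycerol libraries, and Cyp2a5 is higher in glycerol 1 and 3 than in glycerol 2 and 4.

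Of 20 heme and iron genes 5 rose, none fell and 15 were not called, with a median of -0.21. Without the repeated-number libraries 9 rose, 1 fell and the median was 0.20, where 12.4% of all genes rose and 10.6% fell. In the leave-one-out fits, 2 fell without WT glycerol 2, 3 or 4. Hmox1, the inducible heme oxygenase, was at 264.2, 275.2, 291.3 and 688.3 after PBS and at 7554, 3366, 1622 and 6418 after glycerol (log2 fold change 3.53 ± 0.43, adjusted p = 0.000269). Among PBS libraries it was highest in PBS 4, the Ddx3y-positive one. Blvrb, which reduces biliverdin, the product of heme oxygenase, rose by 3.70 ± 0.36, and Slc48a1, a transporter of heme out of lysosomes, by 0.77 ± 0.13. The ferritin heavy chain gene Fth1 went from 68750, 70220, 72540 and 93630 to 278900, 145600, 223400 and 170600 (1.39 ± 0.27). The light chain gene Ftl1 rose by 1.51 ± 0.40 (adjusted p = 0.0382) but was not called in 10 of the 16 leave-one-out fits (without any 1 PBS library of either genotype, or without glycerol 1 or 3; adjusted p up to 0.124). Lrp2 and Cubn, which encode the endocytic receptors megalin and cubilin, had separate groups but did not pass. Lrp2 was at 64460 to 80300 after PBS and at 17610 to 43330 after glycerol (-1.33 ± 0.41, adjusted p = 0.073). Cubn was at 12700 to 15760 and 3179 to 8249 (-1.34 ± 0.43, adjusted p = 0.0777). In these bulk libraries fewer cells of a type and less RNA per cell cannot be told apart.

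Metallothioneins, small proteins that bind zinc and copper, rose in all libraries and most in glycerol 1. Mt2 was at 370.3, 317.3, 282.4 and 303.7 after PBS and at 19170, 2484, 2843 and 2993 after glycerol (3.82 ± 0.59, adjusted p = 0.00178). Mt1 rose by 2.68 ± 0.54 and Mt3 by 2.72 ± 0.56. The other 3 genes of the list of 6, which sense or carry zinc, were not called.

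Of 26 tubule injury and repair genes 10 rose, none fell and 16 were not called, with a median of 0.92. Without the repeated-number libraries 19 rose and the median was 1.19. Havcr1 (chromosome 11, 46735080 to 46779578), which encodes the injury marker KIM-1, was at 21.67, 7.515, 18.73 and 22.56 after PBS and at 3450, 3579, 1088 and 9458 after glycerol, so that even the lowest glycerol library was far above PBS (log2 fold change 7.60 ± 0.57, adjusted p = 5.11e-06). Lcn2, which encodes the siderophore-binding protein NGAL, was at 40.32 to 128.7 after PBS and at 7394, 3303, 435.9 and 3737 after glycerol (4.82 ± 0.65). Krt20, an epithelial keratin, was at 62.68, 3.819, 3.851 and 1.042 after PBS and at 1758, 1427, 58.3 and 1646 after glycerol. PBS 1 was thus above glycerol 3 for this gene (6.57 ± 1.06, adjusted p = 0.00223).

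Others of the list encode secreted or surface proteins of injured epithelium. Tnfrsf12a, the TWEAK receptor gene, was at 19470 in glycerol 1, at 2692 to 3448 in the other 3 and at 213 to 355.4 after PBS (4.21 ± 0.57). The protease inhibitor gene Timp1 rose by 4.11 ± 0.73, Plaur, the urokinase receptor gene, by 2.53 ± 0.42, S100a6, a calcium-binding protein gene, by 2.84 ± 0.55, and the galectin gene Lgals3 by 2.13 ± 0.25. Spp1, which encodes osteopontin, went from 21160 to 37390 after PBS to 183200, 135000, 35560 and 182400 after glycerol, with glycerol 3 inside the PBS range (1.81 ± 0.47, adjusted p = 0.0345). That call ended in 11 leave-one-out fits, those without any 1 PBS library of either genotype or without glycerol 1, 2 or 4 (adjusted p up to 0.115).

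Of 11 tested EGF receptor ligands and receptors 2 rose, 1 fell and 8 were not called. Nrg1, the neuregulin gene, was at 114.3, 116.7, 118.2 and 134.2 after PBS and at 1229, 1053, 579.6 and 1123 after glycerol (2.98 ± 0.22, adjusted p = 5.11e-06). Glycerol 3 was the lowest of the glycerol libraries and stood well above all PBS libraries. Areg, which encodes amphiregulin, was listed at 0 in PBS 3 and 4, at 1.696 and 1.915 in PBS 1 and 2, and at 16.33, 37.58, 200.2 and 110.5 after glycerol (5.22 ± 0.68). Erbb3, a receptor for neuregulins, fell from 3496, 3039, 2958 and 2970 to 917.8, 1550, 1887 and 1533 (-1.12 ± 0.22, adjusted p = 0.00683). Egf, the growth factor of the distal nephron, had separate groups, 56920 to 62570 after PBS and 4419 to 33350 after glycerol, but did not pass with all libraries (-2.23 ± 0.70, adjusted p = 0.0756; -1.46 with adjusted p = 0.0328 without the repeated-number libraries). The falls in this list varied with the libraries used (2 fell without glycerol 2 or WT glycerol 3, and 3 without WT glycerol 4).

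Of 26 cytokine and chemokine genes 10 rose, none fell and 16 were not called. The median was 1.54, and 8 were called in every leave-one-out fit. Cxcl1, a neutrophil chemokine, was at 4.812, 15.19, 12.16 and 7.681 after PBS and at 1193, 423.7, 208.8 and 471.5 after glycerol (5.54 ± 0.49, adjusted p = 2.06e-05). Il1rn, which encodes the antagonist of the interleukin-1 receptor, was at 0.8902 to 4.395 after PBS and at 59.32, 113.7, 6.397 and 204.3 after glycerol, lowest in glycerol 3 (4.20 ± 0.81). Cxcl2 rose by 3.35 ± 0.47, the interferon-inducible chemokine gene Cxcl10 by 2.29 ± 0.29, and Lif, of the interleukin-6 family, by 2.62 ± 0.42. The macrophage growth factor genes Il34 and Csf1 rose by 2.49 ± 0.42 and 1.54 ± 0.24, and Cx3cl1, a membrane-bound chemokine, by 0.93 ± 0.18. Il6 remained low, at 20.17, 11.15, 2.455 and 10.25 after glycerol and at most 1.215 after PBS (adjusted p = 0.0145), and its call ended without PBS 2 or glycerol 1 (0.0551 and 0.0533).

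Of 20 cytokine receptor and feedback genes 5 rose, 1 fell and 14 were not called, with a median of 0.54. The rises numbered 9 without glycerol 3, and the fall was not called without glycerol 1 or 3 or any 1 PBS library of either genotype. Socs3, an inhibitor of cytokine receptors, rose by 2.77 ± 0.44, Bcl3 and Nfkb2, of the NF-kB family, by 3.65 ± 0.68 and 1.29 ± 0.22, and the adhesion molecule gene Icam1 by 1.30 ± 0.27. Lrg1, from the acute-phase list, rose by 2.98 ± 0.55. That list had 2 rises among 11 tested genes, no falls and 9 genes not called. Its rises numbered 1 without glycerol 1, 2 or 4 or any 1 PBS library of either genotype, and 6 without glycerol 3. The NF-kB element, spelled GGG, any 3 bases, then TTCC, was found on either strand in 7 of 21 cytokine genes with a promoter entry, in 6 of the 8 that rose and in 6.31% of all genes. The Cxcl1 promoter at chr5:90891141-90891199 (plus strand, GRCm38.p6) holds 3 matches in 2 stretches, shown in capitals, and the first and last match begin 89 and 70 bases before the start.

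Cxcl1: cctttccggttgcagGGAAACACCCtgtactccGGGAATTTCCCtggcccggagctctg

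Of 24 AP-1 and immediate early genes 7 rose and 1 fell, with a median of 1.18. The fall was not called without glycerol 1 or PBS 1, 2 or 3. Fosl1, an AP-1 subunit, was listed at 0 in 3 PBS libraries and at 3.13 in PBS 2, and stood at 2825, 402.7, 8.681 and 549.3 after glycerol (7.61 ± 1.24, adjusted p = 0.00235). Its lowest glycerol library was again glycerol 3. Atf3, a stress-induced transcription factor, rose by 5.20 ± 0.51, Myc by 3.02 ± 0.29, Maff, a small Maf protein gene, by 2.71 ± 0.35, the phosphatase gene Dusp5 by 3.11 ± 0.41, and Ier3 by 1.31 ± 0.25. No match to the AP-1 letters TGANTCA was found in the 18 members with a promoter entry, against 8.97% of all genes.

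Some genes for breaking down and making proteins rose, by amounts that varied between members and between glycerol libraries. Of 25 proteasome subunit genes 12 rose and none fell (median 0.77), 7 of them in every leave-one-out fit, and without the repeated-number libraries all 25 rose (median 0.72). The count was 7 without PBS 1, 2 or 3 and 20 without WT glycerol 4. Psmb3, of the catalytic core, was at 1724, 1666, 1583 and 2024 after PBS and at 8981, 3575, 7837 and 3918 after glycerol, higher in the repeated-number libraries (1.69 ± 0.28, adjusted p = 0.003; 1.10 without them). Psmb5, a catalytic subunit, rose from 1406 to 2044 after PBS to 5377, 3091, 8705 and 3293 after glycerol (limma adjusted p = 0.00354), and Psmd2, of the regulatory particle, rose by 1.41 ± 0.29. Both rose by 0.95 without the repeated-number libraries. Among 20 ribosome biogenesis genes, 12 rose and none fell (median 0.98), 7 of them in every leave-one-out fit and again 7 without PBS 1, 2 or 3, and 19 rose without the repeated-number libraries. Gnl3, which encodes nucleostemin, went from 510.2 to 576.5 after PBS to 3367, 1361, 1653 and 1308 after glycerol (1.71 ± 0.26), and the nucleolar genes Nop58, Rrp12, Rrp9 and Ncl rose by 1.33 ± 0.23, 1.40 ± 0.25, 1.75 ± 0.38 and 1.81 ± 0.40. Without the repeated-number libraries Rrp9 rose by 1.11 and Ncl by 1.03.

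Of 20 p53 target genes 8 rose and none fell, although the median of the list, 0.29, was low (0.75 without the repeated-number libraries, where 11 rose and 3 fell). Cdkn1a, which encodes the cell cycle inhibitor p21, was at 143.8, 171.3, 104.8 and 126.4 after PBS and at 2294, 1144, 442 and 1587 after glycerol (3.11 ± 0.40). Plk3, a stress kinase, rose by 2.77 ± 0.49, Gadd45a by 2.12 ± 0.29, Phlda3, an inhibitor of Akt, by 1.90 ± 0.29, the nuclease gene Aen by 1.67 ± 0.28, and Trp53 itself by 0.94 ± 0.17. Among the 24 cell cycle and mitosis genes 1 rose (0 to 3 with 1 library left out, 3 without WT glycerol 4). Their median was -0.34, and 3.68% of all genes were called higher. Of 19 regulated cell death genes 4 rose, none fell and 15 were not called. Mlkl, the executor of necroptosis, was at 31.24 to 37.4 after PBS and at 587, 166.7, 141.3 and 202.4 after glycerol (2.71 ± 0.37), and its kinase gene Ripk3 rose by 2.41 ± 0.51. Hspb1, a small heat shock protein gene, went from 254.4 ± 31.97 to 1920 ± 1137 (n = 4 each; 2.74 ± 0.35), and 3 of 18 heat shock genes rose with all libraries. That count was 1 without glycerol 1 or any 1 PBS library of either genotype.

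**Figure D4:**
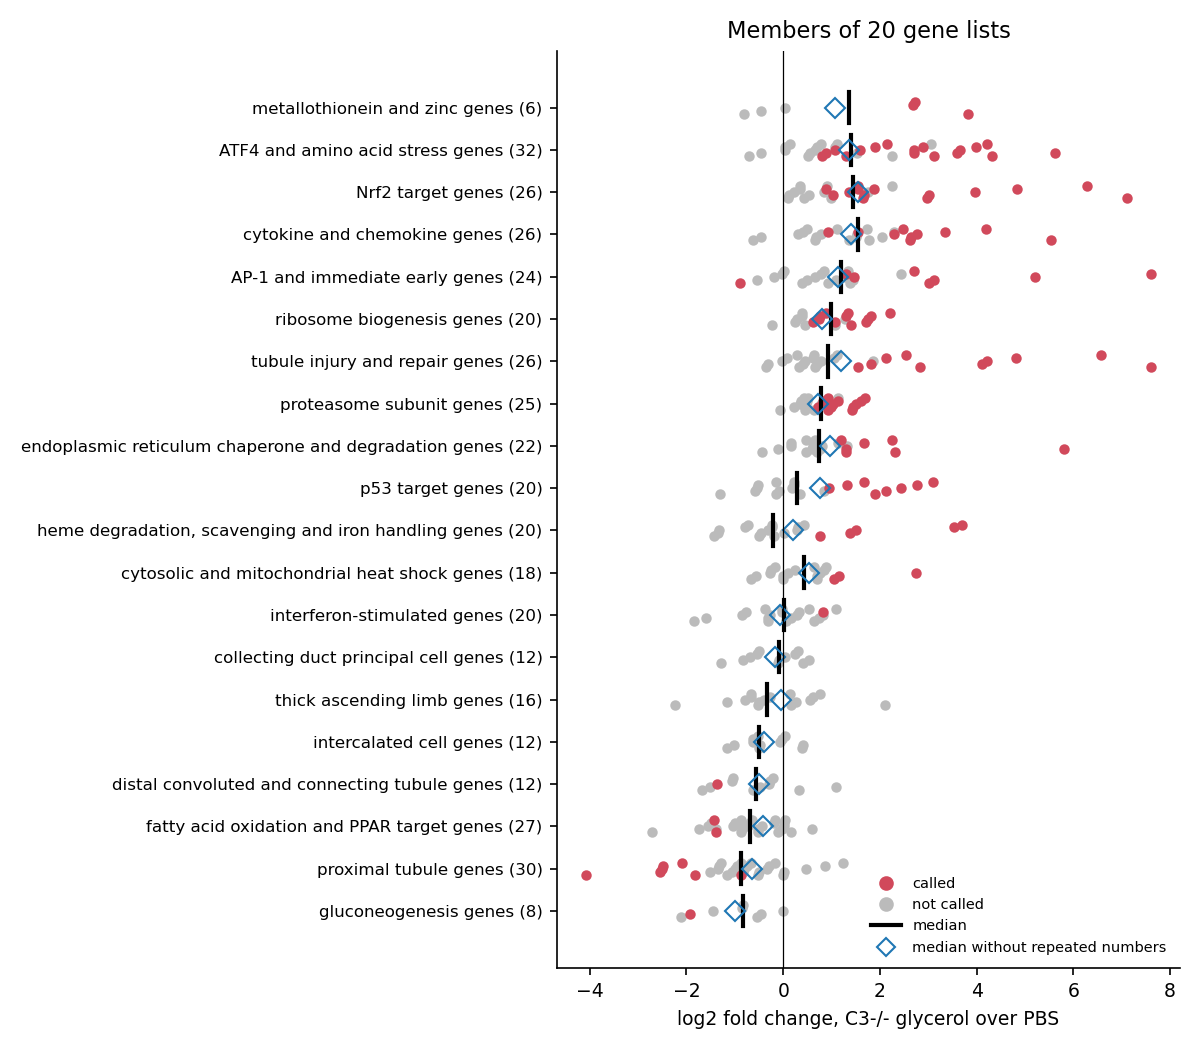
Log2 fold change of glycerol over PBS (x axis) for each tested member of 20 gene lists (rows, number tested in brackets), with called genes in red, the list median as a black bar and the median without the repeated-number libraries as a blue diamond. The medians of the ATF4 and Nrf2 lists are 1.41 and 1.45, and those of the proximal tubule and fatty acid oxidation lists lie below 0.

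Of 30 tested proximal tubule genes 7 fell, none rose and 23 were not called. The median was -0.88 against -0.06 over all genes, and 4 were called lower in every leave-one-out fit. The count was 4 without PBS 1, 12 without WT glycerol 4, and 10 without the repeated-number libraries. Slc5a12 (chromosome 2, 110597298 to 110647779), which takes up lactate from the filtrate, was at 11380, 10150, 8892 and 12470 after PBS and at 115.2, 1300, 421.7 and 2399 after glycerol. It was lowest in the repeated-number libraries, with a log2 fold change of -4.09 ± 0.71 with all libraries (adjusted p = 0.00362) and -2.59 without them. Slc6a19, the transporter of neutral amino acids, was at 14080, 14330, 9793 and 14590 after PBS and at 1073, 2397, 3659 and 3037 after glycerol (-2.49 ± 0.33, adjusted p = 0.000528), with a similar value, -2.27, without the repeated-number libraries.

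Other members fell with more spread. Slc7a7, an amino acid exporter gene, changed by -2.10 ± 0.37, and Slc34a3, a phosphate transporter gene, by -1.83 ± 0.39. Gatm, of creatine synthesis, was at 21570 to 27000 after PBS and at 1496, 6258, 5025 and 6370 after glycerol (-2.54 ± 0.57, adjusted p = 0.0158), a call that ended without glycerol 1 or PBS 1 (0.0519 and 0.0506). The bicarbonate cotransporter gene Slc4a4 had a change of -2.51 ± 0.67 (adjusted p = 0.0405), which did not pass without the repeated-number libraries (-1.24, adjusted p = 0.0818). Its call also ended in 10 leave-one-out fits, those without any 1 PBS library of either genotype or without glycerol 1 or 3 (adjusted p up to 0.129). Slc34a1, the main phosphate transporter gene, was at 81330, 74520, 80650 and 136400 after PBS and at 19210, 22490, 158400 and 27850 after glycerol. Glycerol 3 was the highest of all 8 libraries for this gene while the other 3 glycerol libraries were the lowest (-1.28 ± 0.60, adjusted p = 0.198; -1.85 with adjusted p = 0.015 without the repeated-number libraries).

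Single enzymes of energy metabolism also fell. Fbp1, a key enzyme of gluconeogenesis, went from 14810 to 20320 after PBS to 1948, 4153, 8512 and 6224 after glycerol (-1.93 ± 0.42, adjusted p = 0.0136), and it was the 1 gene called among 8 of that pathway (2 without glycerol 3, glycerol 4, WT glycerol 3 or WT glycerol 4, and 3 without WT glycerol 2). In fatty acid oxidation 2 of 27 genes fell, with a list median of -0.68. Acadm, the medium-chain acyl-CoA dehydrogenase gene, was at 44640, 35860, 46060 and 31910 after PBS and at 9799, 16590, 15830 and 17730 after glycerol (-1.42 ± 0.25), and the thiolase gene Acaa2 changed by -1.40 ± 0.24. Their count was 5 without glycerol 2, 7 without WT glycerol 4 and 8 without the repeated-number libraries. Oxct1, which lets cells burn ketone bodies, was at 39330 to 42100 after PBS and at 8036, 22240, 9729 and 17450 after glycerol (-1.61 ± 0.34; -1.03 without the repeated-number libraries), and Acss1, a mitochondrial enzyme that activates acetate, changed by -1.31 ± 0.21. Among 23 nuclear genes of the respiratory chain 2 fell with all libraries (median -0.16), 1 without PBS 1, 5 without glycerol 3 and 8 without WT glycerol 4. Of the same list, 21 fell and none rose without the repeated-number libraries (median -0.53). The complex II gene Sdhc was at 8203 to 9627 after PBS and at 4091, 5404, 4509 and 5163 after glycerol (-0.86 ± 0.18, adjusted p = 0.0116). None of the 13 mitochondrially encoded transcripts was called in the limma fit with all libraries (median 0.03). Without the repeated-number libraries 2 of them fell, none rose and their median was -0.43.

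Genes outside these lists also fell. Clec2h (chromosome 6, 128662385 to 128677374), a C-type lectin gene, was at 2133, 2269, 1161 and 1485 after PBS and at 87.05, 120.3, 213.9 and 198.8 after glycerol (-3.54 ± 0.33, adjusted p = 2.8e-05). Cyp2d26, a cytochrome P450 gene, was at 10450, 11040, 8692 and 5493 after PBS and at 806.8, 1350, 1484 and 920.4 after glycerol (-2.96 ± 0.28). Igfbp1, which binds insulin-like growth factors, was at 942.3, 913, 714.6 and 277.7 after PBS and at 98.56, 134.9, 76.29 and 64.1 after glycerol (-2.83 ± 0.51). For the latter 2 genes the lowest PBS value was that of PBS 4, the PBS library that carried Ddx3y. It still lay above all glycerol libraries, a condition for naming these genes. The same held for Wfdc16 (62.86 in PBS 4, 159.1 to 225.5 in PBS 1 to 3 and 11.15 to 18.94 after glycerol) and for Dio1, the deiodinase that activates thyroid hormone (886.1, 1987 to 2867 and 186.3 to 691.9).

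Gabarapl1, of autophagosome formation, fell evenly, from 20260, 19150, 18960 and 18090 to 6798, 8908, 7534 and 8876 (-1.26 ± 0.16, adjusted p = 0.000343). The glycosyltransferase gene B3galnt1 changed by -2.50 ± 0.34, Tln2, which encodes the cytoskeletal protein talin-2, by -1.47 ± 0.21, the transcriptional inhibitor gene Id4 by -1.46 ± 0.23, and Spp2 by -1.69 ± 0.27. Cyp51, of cholesterol synthesis, fell by 1.10 on the log2 scale while Sqle, an earlier enzyme of the same pathway, rose by 1.12 ± 0.20. The list of 17 sterol genes had 2 rises and 1 fall (1 rise without glycerol 1 or PBS 1, 3 or 4, and 4 without WT glycerol 4).

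**Figure D5:**
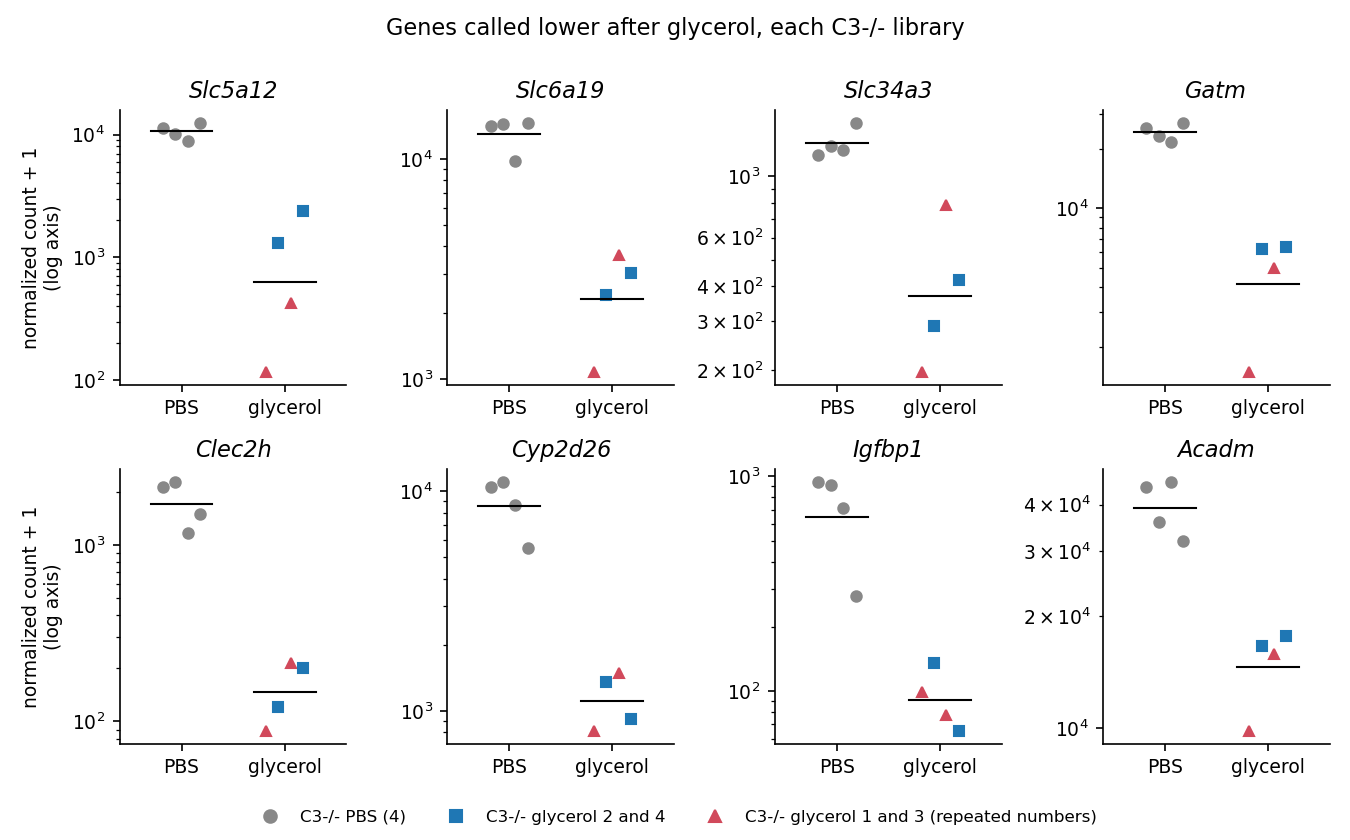
Normalized count + 1 (log axis) of 8 genes called lower, each point 1 C3-/- library, with replicates 1 to 4 from left to right and the bar at the geometric mean of 4 libraries. In all 8 genes the 4 glycerol libraries lie below the 4 PBS libraries, a condition for those named by size or p of change. Slc5a12 is lowest in glycerol 1 and 3.

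In the later nephron segments 1 gene passed with all libraries. Calb1, a calcium-binding protein of the distal convoluted and connecting tubule, fell from 14320, 12340, 13810 and 15700 to 5279, 9247, 3847 and 4605 (-1.37 ± 0.26, adjusted p = 0.00649), the 1 call among 12 genes of that segment (3 without glycerol 2 or without WT glycerol 4). None of 16 thick ascending limb, 12 principal cell, 12 intercalated cell, 10 podocyte or 14 endothelial genes was called with all libraries. Over all genes 4457 had an unadjusted limma p below 0.05. Without the repeated-number libraries, where 10.6% of all genes fell, the falls in these lists numbered 1, 1, 6, 2 and 4. Without WT glycerol 4 alone they numbered 1, 3, 5, 3 and 3. Whether these lists differ from the proximal list was not tested.

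Marker genes of other cells were summed per library to describe what the sections held. Kidney markers were present in all libraries, and the summed proximal list was at 430000 to 597000 after PBS and at 194500 to 546100 after glycerol, overlapping through glycerol 3. The erythroid sum was at 6046 to 11540 after PBS and at 17610 to 20480 after glycerol, and the neutrophil sum at 42.4 to 64.51 and 81.59 to 258.3. The podocyte sum was at 19890 to 22990 and 8627 to 18700, lowest in the repeated-number libraries. These 3 sums had separate groups, with an exact two-sided permutation p of 0.0286 each, the smallest that 4 against 4 can give, and an adjusted p of 0.133 over 14 sums. The macrophage sum overlapped, at 11140 to 13430 and 10140 to 23600, and so did the lymphocyte sum, at 862.6 to 982.4 and 815 to 2544. Of the 14 neutrophil markers listed 9 were in the matrix, and Mmp8 had a median below 1 over the 8 libraries. Their part in the cytokine and injury results was not tested.

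Within these lists few genes passed. The erythroid list had 3 rises among 7 tested genes and no falls, with changes from -1.02 to 2.14 (median 1.03). In that list 5 rose and 1 fell without the repeated-number libraries. Hba-a2 and Alas2, erythroid genes for alpha globin and heme synthesis, rose by 1.69 ± 0.33 and 1.83 ± 0.35. Hba-a1 rose by 2.14 ± 0.46 (adjusted p = 0.0133) but was not called without PBS 3 or glycerol 1 (0.0523 and 0.0506), and its copies share reads that the counting may have split. The macrophage genes Cd68, of lysosomes, and Itgax, which encodes CD11c, rose by 2.54 ± 0.37 and 1.51 ± 0.29. None of the other 18 genes of that list was called with all libraries. Without the repeated-number libraries 5 genes of the macrophage list rose and 1 fell, where 12.4% of all genes rose and 10.6% fell. The antibody genes Ighg2b and Jchain had large rises with wide spread. Jchain was the 1 gene called among 16 tested T, B and natural killer cell genes (median 0.20, lowest -1.05). Of all genes 3.68% were called higher. Ighg2b is outside the list of 16. The list had 0 rises without PBS 1, 2 or 3 or glycerol 1, 2 or 4, and 3 without WT glycerol 4. Ighg2b, an immunoglobulin heavy chain gene, was at most 6.078 after PBS and at 684.4, 482.4, 19.42 and 266.2 after glycerol (5.87 ± 1.55, adjusted p = 0.038). Jchain, which joins antibody units, was at 21.9 to 25.57 in PBS 1 to 3, 87.36 in PBS 4 and 186.4, 505.9, 56.75 and 335 after glycerol (2.62 ± 0.66, adjusted p = 0.0306). Both calls were lost when 1 library was left out, for Ighg2b without any 1 C3-/- PBS library, without glycerol 1, 2 or 4 or without WT PBS 3 (adjusted p up to 0.126), and for Jchain without PBS 1, 2 or 3 or glycerol 1, 2 or 4 (up to 0.098).

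Of 15 tested complement component genes, C3 and C7 rose and none fell (median 0.45). Without the repeated-number libraries 4 rose, 1 fell and the median was 0.01. The rises numbered 1 without glycerol 1 or PBS 1, 3 or 4, and 3 without glycerol 4 or WT glycerol 4, and 1 gene fell without WT glycerol 2. C7, of the membrane attack complex, was at 13.55, 29.56, 21.57 and 27.04 after PBS and at 66.33, 54.06, 51.52 and 111.6 after glycerol (1.57 ± 0.30, adjusted p = 0.00662). Of 16 receptor and regulator genes 2 rose, Itgax and C5ar1, the C5a receptor gene, against 3.68% of all genes called higher. Without the repeated-number libraries 5 of these genes rose and 1 fell, where 12.4% of all genes rose and 10.6% fell. C5ar1 was at 6.374, 15.25, 17.34 and 14.68 after PBS and at 48.84, 31.06, 18.06 and 44.9 after glycerol (1.34 ± 0.37, adjusted p = 0.0467), and its call ended in 13 leave-one-out fits (all but those without glycerol 3, WT glycerol 2 or WT glycerol 4, adjusted p up to 0.148). Interferon-stimulated genes had 1 rise among 20 and a median of 0.02, against 3.68% of all genes called higher. Their count of rises was 0 in 13 leave-one-out fits, 2 without glycerol 4 and 3 without WT glycerol 4.

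Some genes outside the lists rose from near absence. Ptprn, a protein of secretory granules in neuroendocrine cells, was at 6.728, 0.8189, 5.959 and 3.572 after PBS and at 1881, 912.4, 214.6 and 528.9 after glycerol (7.18 ± 0.60, adjusted p = 1.36e-05). Vgf, another secretory granule protein, was listed at 0 in the 4 PBS libraries and stood at 119.9, 28.64, 7.833 and 38.23 after glycerol (adjusted p = 0.000596). Adm, a list member that encodes the vasodilator adrenomedullin, rose by 1.55 ± 0.26. The 20 tested glycolysis and hypoxia genes had 3 rises and no falls, with a median of -0.15. That count of rises was 1 without PBS 1, 2 or 4. Without the repeated-number libraries 4 rose and 2 fell, where 12.4% of all genes rose and 10.6% fell.

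The difference between the C3-/- and WT responses to glycerol was tested as an interaction. It was called for 79 genes (0.438% of those tested), 39 with a more negative and 40 with a more positive log2 change in C3-/-. All 79 were also among the 1858 genes called without the repeated-number libraries. That fit uses part of the same libraries, so this overlap is no independent support. Of the 1016 genes called in C3-/-, 16 were among the 79. The count ranged from 38 to 225 with 1 library left out: it was 38 to 43 without C3-/- PBS 1, 2 or 3 or any 1 WT PBS library, 47 without WT glycerol 1, 179 without C3-/- glycerol 1 and 225 without WT glycerol 4. All 8 WT libraries carried Ddx3y while the C3-/- groups were mixed, so that genotype and sex cannot be fully told apart here.

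Sox9, which encodes a transcription factor active in tubule repair, differed in its response. It was at 28.78, 20, 11.56 and 14.54 after PBS in C3-/- and at 91.02, 57.42, 27.15 and 58.69 after glycerol, and it went from 13.82 ± 4.401 to 1381 ± 860.3 (n = 4 each) in WT. In C3-/- the groups overlapped, with glycerol 3 just below PBS 1. The difference was -4.86 ± 0.61 (adjusted p = 0.00286). Its rise within C3-/-, 1.55 ± 0.43 (adjusted p = 0.0483), ended in 13 leave-one-out fits, all but those without glycerol 3, WT glycerol 2 or WT glycerol 4 (adjusted p up to 0.16). Lif had a difference of -3.62 ± 0.60 (adjusted p = 0.012), with 81.9 ± 43.64 after glycerol in C3-/- and 778.1 ± 295.7 in WT. Serpina10, a protease inhibitor gene, rose by 2.18 ± 0.34 in C3-/- and differed by -3.10 ± 0.48 (adjusted p = 0.0109).

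In the other direction, Slc12a1, the sodium, potassium and chloride cotransporter of the thick limb, was at 82200, 101900, 73210 and 58570 after PBS in C3-/- and at 61940, 67750, 25290 and 52200 after glycerol, with overlapping groups (-0.67 ± 0.31, adjusted p = 0.192). In WT it went from 64280 ± 3841 to 7149 ± 2363, and the difference was 2.55 ± 0.44 (adjusted p = 0.0153). Ppp1r1b, a phosphatase inhibitor gene, was at 2461 ± 583.1 and 1987 ± 304.6 in C3-/- and at 2025 ± 286.7 and 152.3 ± 70.14 in WT (difference 3.54 ± 0.40, adjusted p = 0.00249). For Rnase4, a secreted ribonuclease gene, the PBS levels differed: 2165 ± 331.4 in C3-/- against 275.7 ± 22.09 in WT, with 533.3 ± 215.1 and 252.7 ± 42.13 after glycerol. Its fall in C3-/- was -2.11 ± 0.26, and the difference of -1.97 ± 0.36 (adjusted p = 0.0244) was lost in 9 leave-one-out fits, those without C3-/- PBS 1, 2 or 3, WT glycerol 1 or 2, or any 1 WT PBS library (adjusted p up to 0.0732). Of the injury and stress genes with the largest rises, Havcr1 (-2.52 ± 0.81, adjusted p = 0.215) and Trib3 (0.84 ± 0.33, adjusted p = 0.35) did not pass the test of the difference.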

How the data were processed

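The deposited matrix holds normalized counts (a signal per gene that the authors scaled with DESeq2) for 20525 genes in 16 libraries. The submitters' processing notes name build GRCm38 with STAR 2.7.1, R 3.6.1 and DESeq2. Gene models were Ensembl release 96, per the file headers. How reads were counted, and whether by strand, is not stated in the sources used here. Whole reads could not be recovered, which leaves the depth unknown, and count models were not used. The authors' deposited table for C3-/- glycerol against PBS gives mean signal, a log2 fold change with its error, a test score and each p-value before and after adjustment, and it was read for comparison only.

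Values were analysed as log2(value + 1), which understates changes of low genes, with limma 3.58.1 in R 4.3.3: 1 coefficient for each of 4 groups, a mean-variance trend, a moderated two-sided test, and Benjamini-Hochberg adjustment over 18035 genes, with calls at an adjusted p below 0.05. Genes were named as members of 43 lists or by size, p or level of change. Those named by size or p of the C3-/- change had to be called, with a mean over the 16 libraries of at least 50. Their glycerol values also had to lie on one side of their PBS values. Those named by level had only to be called, and those named by differing response to be called with a mean of at least 50. The members and lists were chosen with earlier results of these data known. Lists are described by counts and medians, without a set test. Marker sums were compared by exact permutation. Positions are from GENCODE M21. The fit was tested on simulated data with independent normal errors and, for each gene, the same spread in all libraries. The simulation held no libraries that stand apart, so it does not show how the repeated-number libraries affect the calls. Promoter windows are from RefSeq.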

Additional observations from a re-analysis of the deposited data

Results flagged for a closer look

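Within the 4 C3-/- libraries of a group, 1 library stood far from the other 3 on the log2 scale for 28 of 269 gene and group pairs examined. The measure is the gap to the nearest library as a share of the whole range, above Dixon's 95% critical value for 4 samples, and chance alone flags about 1 in 20 groups. In the PBS group, library 4, which carried Ddx3y, was high for Sqstm1 (0.953), Hmox1 (0.898), Psmd2 (0.886), Slc34a1 (0.855) and Jchain (0.89). It was low for Hspa5 (0.831), Spp1 (0.939), Myc (0.859) and Spp2 (0.864). PBS 1 was high for Erbb3 (0.837) and Fgf21 (1.0), PBS 2 was high for Fosl1 (1.0), and PBS 3 was low for Nop58 (0.961) and Slc6a19 (0.91). For Fgf21 and Fosl1 the other 3 PBS libraries were listed at 0.

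In the glycerol group, library 1 was high for Gdf15 (0.868), Atf4 (0.839), Mt2 (0.909), Tnfrsf12a (0.875), Nfkb2 (0.953), Plk3 (0.858) and Cd68 (0.928), and low for Gatm (0.836). Library 3 was low for Mthfd2 (0.921), Aldh18a1 (0.894), Hspa5 (0.875), Pgd (0.859), Krt20 (0.938) and Rrp12 (0.978). These are the repeated-number libraries. Glycerol 2 and 4 were never the library apart. They lay close to each other (median absolute log2 difference 0.193), so a gap to the nearest library could hardly flag either of them.

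The response to glycerol differed between C3-/- and WT, by the interaction test, for 6 of the genes described. The difference in log2 fold change was -4.86 for Sox9, -3.62 for Lif, -3.10 for Serpina10, -1.97 for Rnase4, 2.55 for Slc12a1 and 3.54 for Ppp1r1b.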

How the results depend on the processing

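The counts of genes called depended strongly on how the repeated-number libraries entered the fit. With all libraries the rises, falls and differing responses numbered 663, 353 and 79. They numbered 2757, 2832 and 3225 with sample weights, 1524, 1084 and 1324 with a term for the repeated numbers, 1865, 1528 and 1580 with terms for these and for Ddx3y, and 2234, 1908 and 1858 without these libraries. Rises and falls were 215 and 93 with the C3-/- libraries fitted alone, and 2009 and 1927 with the 6 C3-/- libraries without repeated numbers, an alternative chosen after seeing the data. Leaving out 1 library gave 363 to 1460 rises, 129 to 1320 falls and 38 to 225 differing responses. The differing responses also numbered 141 with a pseudocount of 8 and 48 when the mean had to reach 100. Other pseudocounts, filters and scalings kept these counts within 1.5 times.

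Replicate numbers are shared across groups, but the correlations of same-numbered deviations (0.09, 0.19, -0.11 and 0.17) do not show pairing, and 2 of the 4 numbers correlated best with their own. With the replicate number as a block, the counts were 428, 204 and 41, and among named genes Atf4, Ftl1, Spp1, Sox9, Slc4a4, C5ar1, Ighg2b and the differing responses of Rnase4 and Slc12a1 were not called.

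No named gene reversed direction. Of 4489 gene values under an alternative, 4309 kept direction and side of the threshold, 152 lost the call and 28 gained it. Outside the fits above, the lost calls were those of Sox9 (no filter, pseudocount 8, upper-quartile scaling, term for repeated numbers), C5ar1 (no filter, pseudocount 8, term for Ddx3y), Il6 (pseudocount 8), Spp1, Slc4a4 and the differing response of Slc12a1 (quantile normalization), Slc4a4 (term for repeated numbers), and those with 1 library left out. The cause was not tested. Unknown depth leaves counting error unmeasured, most for genes listed near 0.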
